A study of Drosophila melanogaster with 7 samples.

Results

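The genes described here were read as expressed in 1 genotype of third-instar Drosophila melanogaster wing discs and as silent in the other. They were chosen by the measured values themselves. With CPM as the count of a gene over the total of its library, times 1000000, a gene was taken when its mean was at least 5 CPM over the libraries of 1 genotype and its value was at most 0.5 CPM in every library of the other. Ribosomal RNA genes and long noncoding or antisense RNA genes were left out. Of the 17208 genes measured, 83 met the rule: 55 were expressed in ds38k and silent in WT, and 28 were silent in ds38k and expressed in WT. Since the contrast between genotypes selected these genes, their values in it are given as a description, and no test of it is given for them.

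The series measured RNA of whole wing imaginal discs, larval epithelial sacs from which the wing and the adjoining body wall of the fly form. There were 4 libraries of the ds38k genotype, a mutant of dachsous (ds), and 3 of the wild type (WT), whose column names begin w1118.csvd111; what the tag csvd111 stands for is not stated in the labels. The labels give no other allele, sex, age within the instar or number of animals. They do not say that replicates came from separate larvae, so the spread between libraries may be technical.

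Dachsous is a large atypical cadherin that binds the cadherin Fat on the neighbouring cell. The pair feeds into Hippo growth control and into planar cell polarity in the disc epithelium. A gene that is off in a tissue is usually one of another tissue, stage or state: digestive enzymes belong to the midgut, glue proteins to the salivary gland of the late larva, and Hsp70 to cells under heat or other stress. Genes in several near-identical copies can also be read as off when their reads are assigned to another copy. In bulk samples fewer cells of a type and less RNA per cell cannot be told apart.

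Library totals were 25192573 to 31142008 counts in ds38k and 21438650 to 31718949 counts in WT. At these depths a count of 0 allows up to 0.0963 to 0.119 CPM in ds38k and up to 0.0946 to 0.14 CPM in WT, so the limit of 0.5 CPM lay above what counting could resolve. The ds transcript stood at 220, 189, 204 and 141 CPM in the ds38k libraries, against 1692, 1571 and 1838 CPM in the WT libraries, so it was lower but not absent in every library labelled ds38k. The 7 markers of disc epithelium were all detected, with summed levels of 983 to 1272 CPM in ds38k and 2304 to 2961 CPM in WT. Ribosomal RNA genes took 11.5% to 15.3% of the counts in ds38k and 0.842% to 1.52% in WT. Of 11 Y-linked genes 8 had no counts in any library. None of the 83 genes is on the lists of disc epithelium, myoblast, haemocyte, tracheal, nervous system, testis, ovary, immune peptide, glutathione S-transferase or Fat/Dachsous genes.

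2 libraries stood apart from the others of their genotype by the genes they lacked. Which genes meet the rule depended on these and on other libraries. In ds38k replicate 4, 27 genes of the whole table were at most 0.5 CPM while each of the other ds38k libraries had at least 5 CPM, and in WT replicate 1 the same held for 18 genes, against 0 to 2 in each of the other libraries. Without ds38k replicate 4 the rule took 66 genes silent in WT and 43 silent in ds38k. Without WT replicate 1 it took 79 and 28, and without these 2 libraries together 94 and 39. Leaving out a library of the silent genotype cannot remove a gene, since the rule caps each such library. So all 55 genes silent in WT stay without WT replicate 1, and all 28 silent in ds38k without ds38k replicate 4. Of the 55 genes silent in WT, 50 were still taken without ds38k replicate 4 and 36 without ds38k replicate 3. Of the 28 silent in ds38k, 24 were still taken without WT replicate 1 and 21 without WT replicate 3.

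In a fit of all genes with edgeR, 65.0% of the 9294 genes tested passed an adjusted p of 0.05, with 34.2% higher and 30.8% lower in ds38k. Among the genes chosen here, 35 of the 55 silent in WT had enough counts to be tested and 33 of these were called, while 15 of the 28 silent in ds38k were tested and all 15 were called. These counts follow from the choice and nothing is read from them.

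The genes silent in WT were seldom expressed across the ds38k libraries. At 5 CPM or more stood 36 of them in ds38k replicate 1, 23 in replicate 2, 45 in replicate 3 and 8 in replicate 4, and only CG46321 and CG34232 reached that level in all 4. In 40 of the 55 at least 1 ds38k library was itself at most 0.5 CPM. In 42 a single library held more than 50% of the signal of the 4, and the median share of the highest library was 80.9%. The highest library was replicate 3 for 31 genes, replicate 2 for 13, replicate 4 for 6 and replicate 1 for 5. In WT, where the rule caps every library, 10 genes had no count at all.

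**Figure D1:**
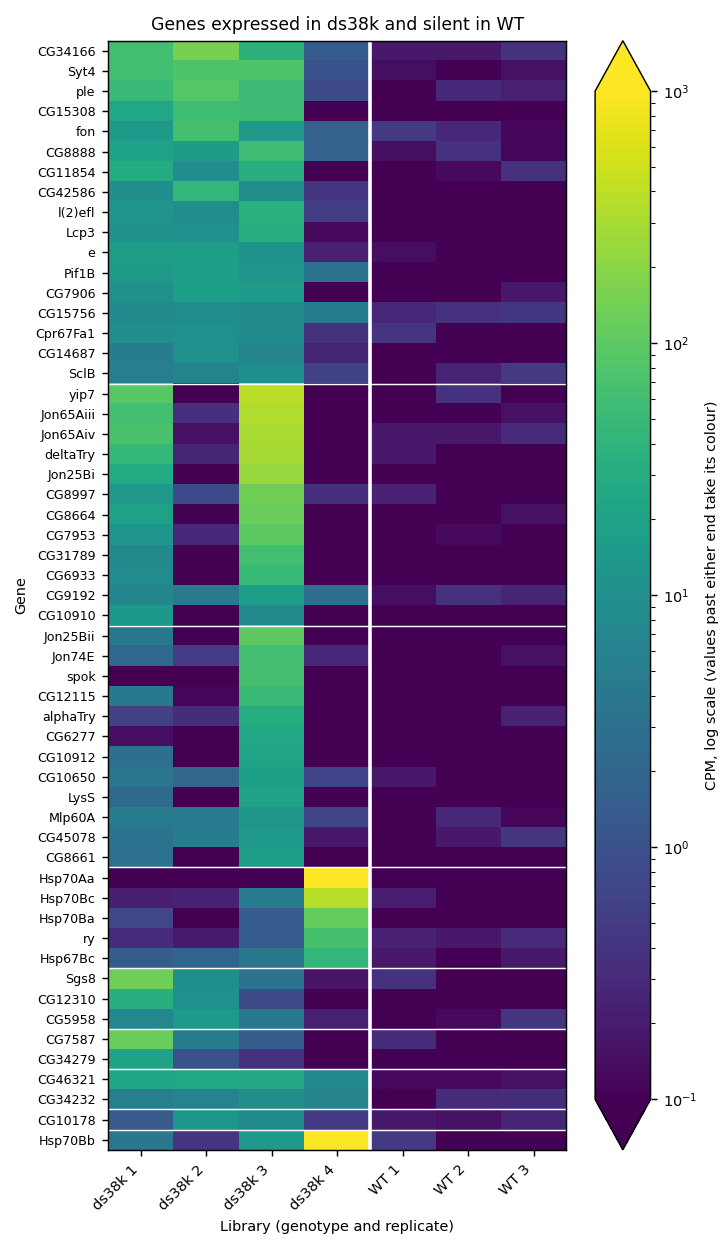
CPM of the 55 genes expressed in ds38k and silent in WT, on a log colour scale, with the 4 ds38k libraries on the left, the 3 WT libraries on the right and the genes in blocks by the set of ds38k libraries at 5 CPM or more. Each block lights up in its own set of ds38k libraries because the blocks were formed that way. Hsp70Aa, at 2262 CPM in replicate 4, is dark in the other ds38k libraries, and the WT columns are dark by the choice of genes.

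Digestive enzymes made up the largest recognisable family. There were 6 serine proteases of the midgut (yip7, Jon65Aiii, Jon65Aiv, Jon25Bi, Jon25Bii and Jon74E), the trypsins deltaTry and alphaTry, and the lysozyme LysS. Their summed level was 308, 1.77, 1758 and 0.514 CPM in ds38k replicates 1 to 4, against 0.561, 0.819 and 0.98 CPM in WT. So ds38k replicates 1 and 3 were high, and replicates 2 and 4 lay close to the WT libraries.

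yip7, a protease of the chymotrypsin fold, had 90.1, 0.0397, 383 and 0.0321 CPM in the ds38k libraries, against 0.0933, 0.378 and 0.0747 CPM in WT. Jon65Aiii had 63.7, 0.357, 328 and 0.0642 CPM in ds38k, against 0.0933, 0.0315 and 0.149 CPM in WT. Jon65Aiv had 71.6, 0.159, 312 and 0.0321 CPM in ds38k, against 0.187, 0.189 and 0.299 CPM in WT. These 3 genes lie within 16.5 kb at chr3L:6035216-6051690, and all follow the same order of libraries. The ds38k and WT values overlap, since 1 or 2 ds38k libraries are as low as WT. deltaTry had 45.4, 0.258, 284 and 0.0642 CPM in ds38k, against 0.187, 0 and 0 CPM in WT. Jon25Bi had 28, 0.0794, 239 and 0 CPM in ds38k and no count in WT, and its neighbour Jon25Bii, 1142 bases away, had 4.1, 0.0397, 98.2 and 0 CPM in ds38k, against 0, 0.0631 and 0 CPM in WT. The replicate 3 library was thus the highest for each of these digestive genes.

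The family was not raised as a whole. Of 16 genes named Jon in the table, 5 met the rule and 10 stayed at most 0.5 CPM in all 7 libraries. Of 12 trypsin genes 2 met the rule and 6 stayed at most 0.5 CPM in all libraries. Of the 7 gut markers listed for checking, 3 are themselves among the genes described here, so their summed level of 94.1, 3.06, 605 and 1.16 CPM in ds38k, against 0.84, 0.441 and 0.906 CPM in WT, is no separate measurement. Of the other markers, Jon99Ci and Mal-A1 were at most 0.353 CPM in every library, and betaTry reached 6.37 CPM in ds38k replicate 3 and at most 0.18 CPM elsewhere. LManI, a lysosomal alpha-mannosidase, had 0.482 to 2.26 CPM in ds38k and 0.41 to 0.7 CPM in WT (log2 fold change 1.85 ± 0.57, adjusted p = 0.023 with edgeR). Outside the rule, epsilonTry, LysD and LysB reached 9.18, 10.1 and 5.77 CPM in ds38k replicate 3 and at most 0.216 CPM elsewhere. Of 7 lysozyme genes 1 met the rule and 3 stayed at most 0.5 CPM in all libraries. The part of gut RNA in these results was not tested.

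Further genes shared this order of libraries without a role that the annotation names. CG8997 had 14.4, 0.794, 136 and 0.353 CPM in ds38k, against 0.233, 0.0631 and 0.0374 CPM in WT, and CG7953, in the same 5.3 kb of chromosome 2L, had 12.8, 0.278, 99.6 and 0 CPM in ds38k, against 0, 0.126 and 0.0747 CPM in WT. On the X chromosome CG8664 had 19.6, 0.0397, 125 and 0 CPM in ds38k, against 0.0466, 0.0315 and 0.149 CPM in WT, and its neighbour CG8661 had 17 CPM in ds38k replicate 3. In each of these genes ds38k replicate 3 was highest and replicate 1 next. In all, 12 genes stood at 5 CPM or more in replicates 1 and 3 alone and 12 in replicate 3 alone.

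The gene spookier (spok), which encodes a cytochrome P450 of ecdysone synthesis in the prothoracic gland, was read in ds38k replicate 3 alone. It had 0, 0, 65.3 and 0.0321 CPM in ds38k, against 0, 0.0631 and 0 CPM in WT. 6 other genes of the same synthesis, chosen after values had been seen, were compared with it. sad had 6.84, 5.99, 57.7 and 4.43 CPM in ds38k, against 4.43, 2.65 and 1.64 CPM in WT. phm had 2.34, 2.54, 39.3 and 4.3 CPM in ds38k, against 2.47, 2.62 and 1.98 CPM in WT. So the replicate 3 library was the highest for sad and phm as well, while their other ds38k libraries lay near the WT range. It was also the highest for dib, sro and nvd. dib had 2.32, 1.65, 8.71 and 6.55 CPM in ds38k, against 1.04, 1.08 and 1.04 CPM in WT. spo was at most 0.229 CPM in every library. With edgeR, sad, dib and sro were called higher in ds38k (adjusted p = 0.043, 0.013 and 0.035), beside 34.2% of all genes tested, and phm was not called (adjusted p = 0.077). Summed over the 7 genes the level was 17.3, 15.5, 188 and 19.6 CPM in ds38k, against 12.7, 9.72 and 7.93 CPM in WT. The part of gland RNA in the spok result was not tested.

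Heat shock genes carried the highest levels of all, in 1 library. Hsp70 is the chief inducible chaperone of Drosophila and has 6 nearly identical copies on chromosome 3R, of which 4 met the rule. Hsp70Aa (FBgn0013275, chr3R:11954163-11956544 in dm6 coordinates) had 0, 0, 0 and 2262 CPM in the ds38k libraries and no count in WT. Hsp70Bb had 3.8, 0.418, 14.8 and 1422 CPM in ds38k, against 0.482, 0 and 0 CPM in WT. Replicate 4 thus held nearly all of the signal of these copies. Hsp70Bc had 0.219, 0.235, 4.24 and 376 CPM in ds38k, against 0.204, 0 and 0 CPM in WT, and Hsp70Ba had 0.717, 0, 1.48 and 114 CPM in ds38k with no count in WT. The other 2 copies missed the rule through their WT values: Hsp70Ab had 73.3, 0.855, 65 and 5030 CPM in ds38k, against 2.58, 0.931 and 1.06 CPM in WT. In every copy ds38k replicate 4 stood far above the rest, and ds38k replicate 2 lay within or near the WT range.

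How the reads fell among the copies is uncertain, because the copies share most of their sequence. Summed over all 6 copies the level was 87.3, 1.79, 110 and 11654 CPM in ds38k, against 4.2, 1.8 and 1.68 CPM in WT, so Hsp70 RNA as such was not silent in WT. Hsp70Aa was absent from ds38k replicates 1 and 3, which held Hsp70Ab at 73.3 and 65 CPM. Whether this came from the assignment of reads to a copy was not tested.

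The other heat shock gene of the set, Hsp67Bc, encodes a small heat shock protein and had 1.51, 1.95, 3.95 and 45.2 CPM in ds38k, against 0.187, 0 and 0.187 CPM in WT. Here all ds38k libraries lay above all WT libraries. Of 9 further genes of the heat shock list that were tested, 8 rose in ds38k and 0 fell, beside 34.2% and 30.8% of all genes tested. Their median log2 fold change was 5.12, against 0.07 over all genes tested. Hsp26, a small heat shock protein, had 567, 512, 576 and 2918 CPM in ds38k and 45.4, 37.6 and 36.1 CPM in WT, a log2 fold change of 5.12 ± 0.86 (SE, adjusted p = 0.0015 with edgeR). Hsp27, of the same family, had 5460, 5456, 5175 and 6053 CPM in ds38k and 1210, 1027 and 1062 CPM in WT, a log2 fold change of 2.56 ± 0.13 (adjusted p = 5.2e-06 with edgeR). For Hsp27 the 4 ds38k libraries were alike, unlike for Hsp70. The count of 8 fell to 5 without any 1 of the WT libraries and to 3 with DESeq2.

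The gene rosy (ry), which encodes xanthine dehydrogenase and is used as an eye colour marker in stocks, followed the same library. It had 0.324, 0.198, 1.45 and 68.4 CPM in ds38k, against 0.233, 0.189 and 0.299 CPM in WT. Its upstream neighbour l(3)87Df, 929 bases away, had 5.69, 5.08, 6.21 and 17.4 CPM in ds38k and 4.38, 3.22 and 3.14 CPM in WT (log2 fold change 1.52 ± 0.52, adjusted p = 0.035 with edgeR). The eye colour gene white (w) had 1.55, 0.953, 1.6 and 10.5 CPM in ds38k and 0.187, 0.0946 and 0.336 CPM in WT. All 3 genes were highest in ds38k replicate 4.

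**Figure D2:**
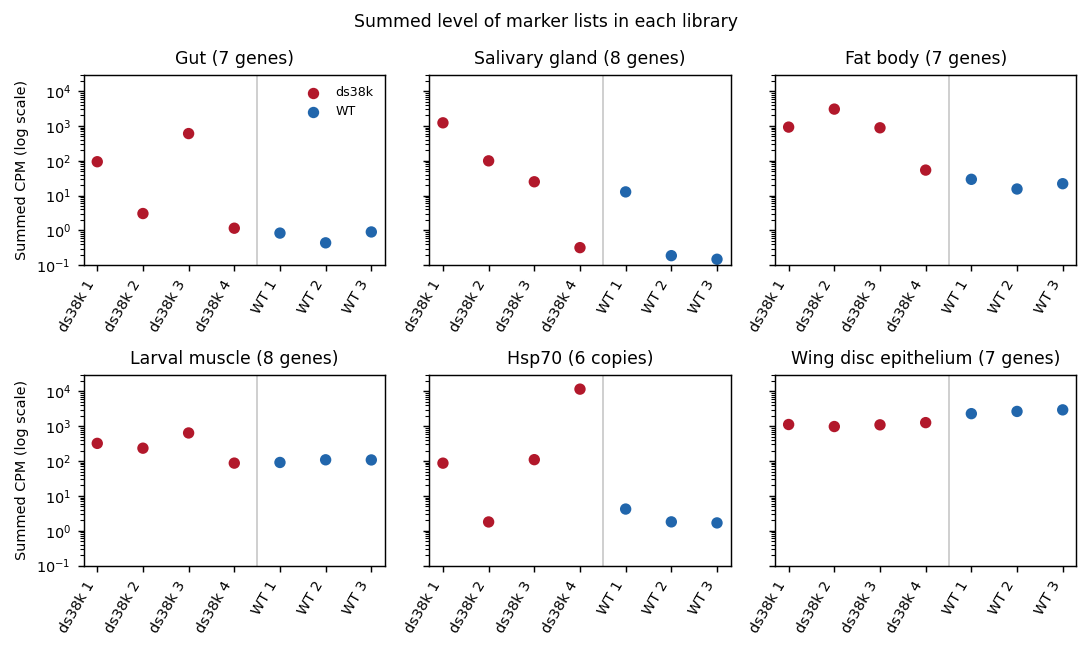
Summed CPM of 6 gene lists in each library, on a log axis, with ds38k libraries in red on the left and WT libraries in blue on the right of each panel. Gut genes peak in ds38k replicate 3, salivary gland genes in replicate 1, fat body genes in replicate 2 and Hsp70 in replicate 4, while the disc epithelium markers differ little within a genotype.

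Glue genes peaked in ds38k replicate 1. Sgs8, a secreted glue protein that fixes the pupal case to its support, had 130, 9.73, 3.32 and 0.161 CPM in ds38k, against 0.373, 0 and 0 CPM in WT. CG7587, listed as Sgs5bis in the annotation used here, had 121, 4.72, 1.48 and 0 CPM in ds38k, against 0.327, 0 and 0 CPM in WT. In both genes ds38k replicate 1 was by far the highest library, and replicate 4 overlapped WT. Sgs7, next to Sgs8, had 274, 17.7, 7.54 and 0.0321 CPM in ds38k and 0.7, 0 and 0 CPM in WT, and missed the rule by its value in WT replicate 1. It was higher in ds38k by a log2 fold change of 8.71 ± 2.83 (adjusted p = 0.029 with edgeR), a call that was lost without ds38k replicate 1 (adjusted p = 0.068) and without any 1 of the WT libraries. Sgs5, beside CG7587, had 108, 6.47, 2.03 and 0 CPM in ds38k and 0.84, 0 and 0 CPM in WT and missed the threshold (adjusted p = 0.052 with edgeR). All 7 glue genes together summed to 1245, 92.4, 24.7 and 0.321 CPM in ds38k, against 12.4, 0.189 and 0.112 CPM in WT, and within WT replicate 1 was highest. CG34279 and CG12310, whose functions are not named here, had their highest values, 20.3 and 31.9 CPM, in the same ds38k library. The part of salivary gland RNA in these results was not tested.

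A block of 17 genes stood at 5 CPM or more in ds38k replicates 1, 2 and 3 and below it in replicate 4. It holds genes of cuticle hardening and colour. pale (ple), the tyrosine hydroxylase that starts dopamine synthesis, had 49.2, 89.4, 55.1 and 0.835 CPM in ds38k, against 0.0933, 0.284 and 0.224 CPM in WT. ebony (e), which joins dopamine to beta-alanine for pale cuticle, had 17.2, 17.4, 11.2 and 0.225 CPM in ds38k, against 0.14, 0 and 0 CPM in WT. The larval cuticle protein gene Lcp3 had 11.5, 10.6, 33.5 and 0.128 CPM in ds38k, against 0, 0.0631 and 0.0374 CPM in WT. In each of them 3 ds38k libraries stood well above WT, and only replicate 4 came near it. The block was formed by this order, so which library is lowest is no separate observation.

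Of 4 tested genes of the same process that the rule did not take, 2 rose and 1 fell in ds38k. Over all genes tested the shares were 34.2% and 30.8%. Ddc, the dopa decarboxylase that acts after ple, had 36.2, 51, 60.8 and 11.8 CPM in ds38k and 1.12, 1.29 and 1.27 CPM in WT (log2 fold change 5.22 ± 0.59, adjusted p = 2e-04 with edgeR). black (b), which makes beta-alanine, had 15.6, 19.7, 14.1 and 7.61 CPM in ds38k and 5.04, 2.18 and 3.25 CPM in WT (log2 fold change 2.25 ± 0.4, adjusted p = 0.002 with edgeR). For these genes the groups did not overlap. straw (stw), a laccase gene, was lower: 19, 18.9, 21.6 and 23.2 CPM in ds38k and 80.1, 71.2 and 76.4 CPM in WT (log2 fold change -1.64 ± 0.12, adjusted p = 3e-05 with edgeR). Ddc, b and stw were chosen after their values were seen.

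Of the 125 cuticle protein genes measured, 74 stayed at most 0.5 CPM in all libraries. Lcp3 and Cpr67Fa1 met the rule. Of 43 others tested 20 rose and 6 fell, beside 34.2% and 30.8% of all genes tested. Their median log2 fold change was 0.74, against 0.07 over all genes tested. Without WT replicate 2, or without WT replicate 3, 11 rose. Lcp3 is flanked by Lcp2 and Lcp4. Lcp2 had 47, 37, 62.6 and 0.0642 CPM in ds38k and 0.653, 0.284 and 0.262 CPM in WT, and Lcp4 had 56.6, 48.4, 91.3 and 0.225 CPM in ds38k and 2.01, 0.946 and 0.897 CPM in WT. So all 3 Lcp genes were near or below WT in ds38k replicate 4 and above it in the other ds38k libraries. Their edgeR calls (adjusted p = 0.011 for Lcp2 and 0.016 for Lcp4) were lost without WT replicate 2 or 3. Cpr67Fa1 had 9.04, 10, 8.32 and 0.385 CPM in ds38k, against 0.403, 0.0631 and 0.0374 CPM in WT.

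The largest of the 17 genes by mean was CG34166, with 60.6, 149, 37 and 1.48 CPM in ds38k, against 0.187, 0.189 and 0.374 CPM in WT. Its neighbour CG42586, within 2.7 kb on 2L, had 9.86, 45.2, 9.42 and 0.417 CPM in ds38k, against 0.0933, 0 and 0 CPM in WT. fondue (fon), a protein of the haemolymph clot, had 14.7, 67.1, 14.2 and 1.8 CPM in ds38k, against 0.466, 0.284 and 0.112 CPM in WT. These 3 genes peaked in ds38k replicate 2. The 7 fat body genes of the marker list, larval serum proteins and fat body proteins, summed to 928, 3050, 887 and 54.1 CPM in ds38k, against 29.4, 15.5 and 22 CPM in WT. All 7 rose in ds38k, beside 34.2% of all genes tested, with a median log2 fold change of 5.66 against 0.07. None was at 0 in any library, and none was taken by the rule. Their part in the result was not tested.

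Syt4 (chr3R:7266065-7270809), a synaptotagmin that acts in vesicle release, had 61.8, 77.3, 78.7 and 1.03 CPM in ds38k, against 0.14, 0 and 0.149 CPM in WT, and was nearly level over ds38k replicates 1 to 3. Its neighbour Gld, which encodes glucose dehydrogenase and lies 361 bases away, had 48.6, 46.7, 44.1 and 30 CPM in ds38k and 18.1, 27.5 and 25.5 CPM in WT (log2 fold change 1.05 ± 0.19, adjusted p = 0.0023 with edgeR). For Gld the groups did not overlap, and it was detected in all 7 libraries. CG15308 had 25.2, 58.1, 54.3 and 0 CPM in ds38k, against 0, 0 and 0.0374 CPM in WT. CG8888 had 21, 15.7, 57.5 and 1.83 CPM in ds38k, against 0.14, 0.378 and 0.112 CPM in WT. In Syt4, CG15308 and CG8888 replicate 4 was the lowest ds38k library by the way their block was defined. For Gld, outside the rule, it was the lowest as well.

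l(2)efl, a member of the small heat shock protein family, had 12, 9.53, 35.2 and 0.514 CPM in ds38k, against 0.0933, 0.0315 and 0.0374 CPM in WT. The muscle LIM protein gene Mlp60A had 4.61, 4.25, 13.2 and 0.674 CPM in ds38k, against 0.0933, 0.284 and 0.112 CPM in WT. Both were highest in ds38k replicate 3, as was the summed level of 8 larval muscle genes, at 323, 235, 643 and 87.5 CPM in ds38k, against 91.4, 109 and 108 CPM in WT. Of these 8 muscle genes 6 rose and 0 fell, beside 34.2% and 30.8% of all genes tested. Their median log2 fold change was 3.36, against 0.07 over all genes tested. The muscle gene sls ran lower and was not called (log2 fold change -0.8 ± 0.38, adjusted p = 0.1 with edgeR). Tropomyosin 2 (Tm2), for example, had 31.5, 22.3, 74.8 and 1.8 CPM in ds38k and 0.233, 1.8 and 1.23 CPM in WT (log2 fold change 5.07 ± 1.26, adjusted p = 0.0095 with edgeR). Here ds38k replicate 4 again overlapped WT. The part of muscle RNA in the Mlp60A result was not tested.

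CG46321 and CG34232 alone were at 5 CPM or more in all 4 ds38k libraries. CG46321 (chr2R:10205454-10227957) had 23.6, 24.6, 25.6 and 7.38 CPM in ds38k, against 0.125, 0.126 and 0.149 CPM in WT. It lies inside the locus of Hr3, a nuclear receptor of the ecdysone response, which had 22.2, 12, 11.6 and 9.73 CPM in ds38k and 0, 0.637 and 0.598 CPM in WT (log2 fold change 5.23 ± 0.86, adjusted p = 0.0014 with edgeR). Both are on the same strand, and whether they share exons was not tested. CG34232, a gene of 1 exon on chromosome 2R, had 5.18, 6.35, 9.5 and 6.1 CPM in ds38k, against 0.0466, 0.315 and 0.336 CPM in WT. Its neighbour Oda, an ornithine decarboxylase antizyme gene 482 bases away, had 686, 682, 685 and 650 CPM in ds38k and 722, 817 and 779 CPM in WT and was not called (adjusted p = 0.7 with edgeR).

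Of 23 ecdysone response genes 22 were tested and none met the rule. Of those tested 12 rose and 8 fell, beside 34.2% and 30.8% of all genes tested. The median log2 fold change was 0.67, and the 8 became 5 with a correction for transcript length. ImpE2, an ecdysone-inducible gene of discs, had 6609, 7132, 6710 and 4654 CPM in ds38k and 492, 445 and 613 CPM in WT (log2 fold change 3.82 ± 0.19, adjusted p = 5.6e-06 with edgeR). Blimp-1, a transcriptional repressor induced by the hormone, had 147, 167, 156 and 60.7 CPM in ds38k and 8.58, 4.63 and 19.6 CPM in WT (log2 fold change 3.81 ± 0.59, adjusted p = 0.001 with edgeR). Replicate 4 was the lowest ds38k library for both, yet it stayed above WT. For the block of 17 genes the same order was fixed by the grouping. Blimp-1 was chosen after its values were seen. Eip74EF, an early target of the hormone, was lower, with 37.2, 53.4, 65 and 44.7 CPM in ds38k and 319, 312 and 346 CPM in WT (log2 fold change -2.48 ± 0.18, adjusted p = 2.8e-05 with edgeR). EcR (log2 fold change -1.95 ± 0.17, adjusted p = 5.4e-05) and chinmo (-4.13 ± 0.43, adjusted p = 0.00014, both with edgeR) were lower too. With ImpE2 and Eip74EF these had the smallest p of the list. In EcR and chinmo replicate 4 was the highest ds38k library, at 114 and 23.3 CPM, yet below every WT library.

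Among the 28 genes silent in ds38k, where the rule caps every ds38k library, 9 had no count in ds38k and the highest ds38k value of any was 0.468 CPM. In the WT libraries 11 were at 5 CPM or more in replicate 1, 21 in replicate 2 and 25 in replicate 3. Only 6 reached that level in all 3 WT libraries, 15 did so in replicates 2 and 3 alone, and 13 were at most 0.5 CPM in at least 1 WT library. Their sum was 291, 616 and 635 CPM in WT replicates 1 to 3. The 28 hold 26 protein-coding genes and 2 pseudogenes, whereas all 55 genes silent in WT are protein-coding.

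**Figure D3:**
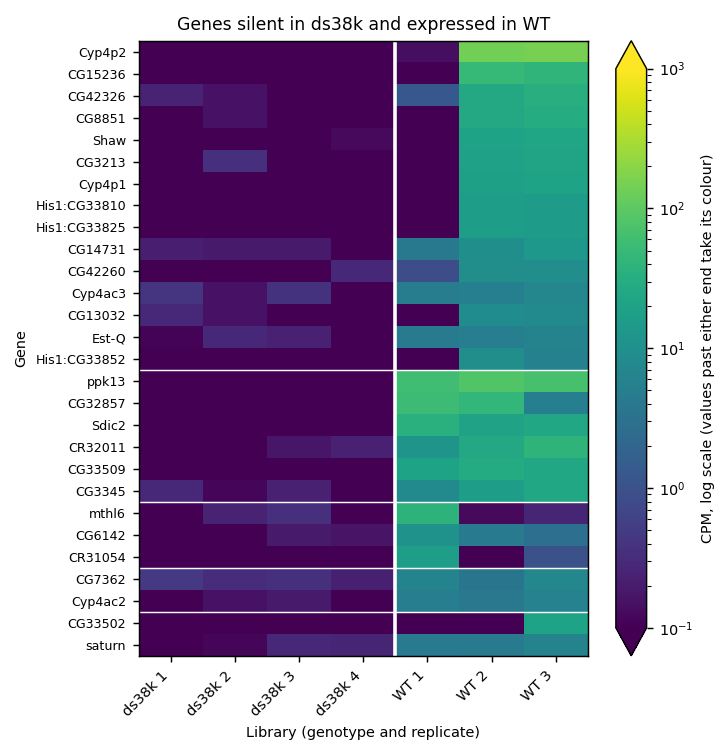
CPM of the 28 genes silent in ds38k and expressed in WT, on a log colour scale, with ds38k libraries on the left and WT libraries on the right, in blocks by the set of WT libraries at 5 CPM or more. The largest block, of 15 genes, is bright in WT replicates 2 and 3 by its definition and mostly dark in WT replicate 1.

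The 6 genes expressed in every WT library were ppk13, CG33509, CG32857, Sdic2, CR32011 and CG3345. ppk13 (FBgn0053508, chr2L:21086790-21088751, 7 exons), a sodium channel subunit of the pickpocket family, had no count in the 4 ds38k libraries, against 60.3, 80.8 and 69.5 CPM in WT. CG33509, 283 bases before it on the same strand of 2L, had 0.036, 0, 0 and 0 CPM in ds38k, against 21.2, 28.8 and 25.2 CPM in WT. The mean of ppk13 in WT was 70.2 ± 10.3 CPM and that of CG33509 25.1 ± 3.77 CPM (SD, n = 3 each). Of all the genes silent in ds38k these came nearest to a plain off and on state. CG9259, 623 bases beyond ppk13, had no count in ds38k and 0.7, 0.788 and 0.411 CPM in WT (log2 fold change -6.98 ± 0.92, adjusted p = 0.0031 with edgeR, a fitted fold that depends on the prior count). CG33510, on the other side, had no count in ds38k and 0.187, 0.221 and 0.187 CPM in WT and was too low to test. So 4 adjacent genes had at most 1 count each in the ds38k libraries.

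CG3345 (chr2L:269088-271626) lies 368.4 kb from ds, nearer to it than any other gene of the set on 2L. It had 0.288, 0.119, 0.234 and 0.0321 CPM in ds38k, against 8.07, 17.1 and 24.4 CPM in WT. CG17075, the gene before it, had 1.01, 1.15, 0.821 and 0.353 CPM in ds38k and 8.82, 28.3 and 39.8 CPM in WT (log2 fold change -4.73 ± 0.59, adjusted p = 0.00034 with edgeR), so these neighbours fell in parallel and were both lowest in WT replicate 1. The gene after it, mbm, which acts in mushroom body and neuroblast growth, had 36, 35.2, 32 and 45.4 CPM in ds38k and 42.5, 40.9 and 42 CPM in WT and was not called (adjusted p = 0.73 with edgeR). CG3645, which overlaps CG3345, was not called either, at 31.3 to 34.5 CPM in ds38k and 33.5 to 44.5 CPM in WT. The call thus held for CG17075 but not for the other 2 genes beside CG3345. Chromosome 2L holds 19.4% of the genes in the table and 11 of the 28 genes silent in ds38k, against 12 of the 55 silent in WT. After CG3345 the nearest of the 11 to ds is CG3213, at 2802.3 kb, and the farthest is His1:CG33852, at 20801.8 kb. The 11 include adjacent genes and histone H1 copies, and their number on 2L was not tested.

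The cytochrome P450 genes Cyp4p1 and Cyp4p2 were read in WT replicates 2 and 3 alone. Cyp4p2 (FBgn0033395, chr2R:9237512-9239831, 8 exons) had no count in ds38k, against 0.14, 141 and 150 CPM in WT. Cyp4p1, 209 bases downstream, had 0.072, 0.0397, 0 and 0.0963 CPM in ds38k, against 0, 18.8 and 20.8 CPM in WT. hig, the synaptic gene in whose locus they lie on the opposite strand, had at most 0.159 CPM in ds38k and 0.0933, 6.59 and 5.27 CPM in WT, and Cyp4p3, the next gene, was at most 0.224 CPM in every library. For Cyp4p1, Cyp4p2 and hig WT replicate 1 lay at or near the ds38k values, at 0.14 CPM or less. The labels do not say that counting used strand. Whether hig shares exons with the Cyp4p genes, so that reads could be assigned to either, was not tested.

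Another P450 group, on 2L, was detected in all WT libraries, each gene at 3.99 CPM or more. Cyp4ac3 had 0.396, 0.159, 0.391 and 0.0321 CPM in ds38k, against 4.85, 5.42 and 7.03 CPM in WT, and Cyp4ac2 had 0.036, 0.159, 0.195 and 0.0963 CPM in ds38k, against 5.21, 3.99 and 6 CPM in WT. Cyp4ac1, which completes the group, had 0.54, 0.873, 0.977 and 0.482 CPM in ds38k and 6.03, 4.37 and 6.53 CPM in WT and fell in ds38k (log2 fold change -2.75 ± 0.34, adjusted p = 0.00034 with edgeR). Cyp4ac2 and Cyp4ac3 overlap the tkv locus, on the other strand, and tkv, a receptor of the Dpp signal, had 395 to 564 CPM in ds38k and 778 to 855 CPM in WT. All 3 Cyp4ac genes were lower in every ds38k library than in any WT library. Of 67 P450 genes in the list 4 met the rule. Of 33 others tested 7 rose and 4 fell, beside 34.2% and 30.8% of all genes tested, with a median log2 fold change of 0. The 7 became 2 or 3 without any 1 library other than ds38k replicate 4.

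CG8851 and CG3213, adjacent on 2L, had 0 to 0.357 CPM in ds38k. CG8851 had 0.0466, 26.2 and 29.5 CPM in WT, and CG3213 had 0.0933, 19.8 and 21.9 CPM. Both were carried by WT replicates 2 and 3 alone. The scavenger receptor gene Sr-CIV, which overlaps CG8851, had 0.252, 0.0794, 0.0782 and 0.739 CPM in ds38k and 0.56, 9.43 and 10.8 CPM in WT (log2 fold change -4.28 ± 1.13, adjusted p = 0.012 with edgeR). CG8852, the next gene, had 0.0363, 0, 0.119 and 2.39 CPM in ds38k and 2.89, 21.1 and 18.6 CPM in WT, a call (adjusted p = 0.043 with edgeR) that was lost without any 1 of ds38k replicates 1 to 3 or of WT replicates 2 and 3. CG17593, 8 bases from CG3213 on the other side, ran the other way at 82.4, 82.5, 76 and 66.1 CPM in ds38k and 44.4, 53.7 and 56 CPM in WT (log2 fold change 0.8 ± 0.11, adjusted p = 0.00051 with edgeR). On that side the lower levels therefore did not extend to CG17593. WT replicate 1 lay near ds38k for CG3213, CG8851 and Sr-CIV, while for CG8852 it lay near ds38k replicate 4 alone.

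Shaw (chr2L:3718185-3729145), a voltage-gated potassium channel gene, had 0, 0, 0 and 0.128 CPM in ds38k, against 0.0466, 21.2 and 22.6 CPM in WT. CG15236 had no count in ds38k, against 0, 47 and 41.9 CPM in WT. CG42326 had 0.252, 0.159, 0.0391 and 0 CPM in ds38k, against 1.26, 25.6 and 31.9 CPM in WT. WT replicate 1 was low for all of these. mthl6, a methuselah-like receptor gene, was the opposite case, with 0, 0.238, 0.352 and 0 CPM in ds38k, against 38.8, 0.126 and 0.262 CPM in WT, so that its signal came from WT replicate 1 alone. The esterase gene Est-Q was even across libraries but low, with 0.0963 to 0.278 CPM in ds38k, against 4.52, 5.23 and 6.05 CPM in WT. CG42260 had 0.036, 0, 0.0391 and 0.289 CPM in ds38k, against 0.886, 9.64 and 9.16 CPM in WT. CG6142 had 0.072, 0, 0.195 and 0.161 CPM in ds38k, against 11.3, 4.67 and 2.88 CPM in WT.

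The split of WT replicate 1 from the other WT libraries ran through the whole table. It lacked 18 genes that the other WT libraries had at 5 CPM or more, 10 of which are among the 28, and had 18 genes that they lacked, of which only mthl6 is. Of the 18 that it lacked, 11 were at most 0.5 CPM in every ds38k library as well and 2 were at 5 CPM or more in all of them. Genes that it alone of the WT libraries had include p24-2, a gene of the secretory pathway, at 13.5, 0.097, 1.69 and 178 CPM in ds38k and 1010, 0 and 0 CPM in WT. They also include Gr64a, a sugar taste receptor gene, at 0, 0, 0 and 0.674 CPM in ds38k and 39.6, 0 and 0 CPM in WT. Unc-115b had 20.7, 0.733, 1.73 and 89.1 CPM in ds38k and 256, 0 and 0 CPM in WT, and CG18853 had 117, 119, 104 and 0 CPM in ds38k and 128, 0 and 0 CPM in WT. These 4 were chosen after their values were seen, and all differ within WT by as much as the genes of the rule differ between genotypes. The presence of such a gene thus did not follow the genotype label alone, and what separates these libraries was not tested.

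Several genes silent in ds38k were set beside other genes of the same family or group. Whether reads of 1 gene were assigned to another was not tested. 3 of the 12 histone H1 genes in the table met the rule: His1:CG33810 and His1:CG33825 had identical values, no count in ds38k and 0, 16.9 and 16.5 CPM in WT, and His1:CG33852 had no count in ds38k and 0, 9.6 and 5.72 CPM in WT. Another copy, His1:CG33840, had 96.8, 94.4, 115 and 33.3 CPM in ds38k, against 15.1, 0 and 5.72 CPM in WT. Summed over the 12 copies the level was 99.5, 97.3, 117 and 50 CPM in ds38k, against 40.9, 71 and 97.5 CPM in WT, and the groups overlapped. So histone H1 RNA was present in all 7 libraries, and the copies to which it was assigned differed.

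A like pattern was read on the X chromosome, in genes whose likeness in sequence was not examined. CG32857 had no count in ds38k, against 54.9, 44 and 5.37 CPM in WT, and CG33502 had no count in ds38k, against 0, 0 and 21 CPM in WT. CG32500, farther along in the same direction, had 30, 29.4, 26.3 and 41.2 CPM in ds38k and 0, 0.591 and 8.51 CPM in WT. These genes with CG32819, CG32820 and the more distant CG40813, a group put together after values had been seen, summed to 30.1, 29.5, 26.3 and 41.9 CPM in ds38k, against 57, 45.8 and 36.1 CPM in WT. The sums of ds38k and WT overlapped, at 41.9 and 36.1 CPM, whereas the values of CG32857 and CG32500 did not.

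Sdic2 differed from these in the sum over its named copies. It is 1 of the X-linked Sdic genes, which encode a dynein intermediate chain of sperm, and had 0, 0.0973, 0 and 0.0979 CPM in ds38k, against 35.1, 20.4 and 24.6 CPM in WT. Summed over the 4 Sdic genes the level was 0.0608, 0.0973, 0.189 and 0.21 CPM in ds38k, against 41.3, 20.8 and 24.8 CPM in WT. Here the sum over the 4 Sdic genes differed as much as the single gene did. Assignment of reads to related genes of other names was not tested. The testis list, of 10 genes, summed to 16.8 to 27.7 CPM in ds38k and 25.9 to 34.3 CPM in WT, and 1 of its genes had no count. Most of that sum was mia, at 14.8 to 25 CPM in ds38k and 20.2 to 30.6 CPM in WT, which was not called. Of its 3 tested genes the other 2 fell in ds38k: sa had 0.0397 to 0.313 CPM in ds38k and 0.82 to 1.45 CPM in WT (log2 fold change -2.36 ± 0.59, adjusted p = 0.0093 with edgeR), and Mst77F had 0.0963 to 0.936 CPM in ds38k and 2.4 to 3.55 CPM in WT (log2 fold change -2.14 ± 0.62, adjusted p = 0.018 with edgeR). The median log2 fold change of the 3 was -2.14, and of all genes tested 30.8% fell. The part of testis genes in the Sdic2 result was not tested. The pseudogene CR32011, near the start of chromosome 4, had 0, 0, 0.172 and 0.233 CPM in ds38k, against 11.8, 26 and 40.4 CPM in WT. Its neighbour CR32010, also a pseudogene, went the other way, at 4.64, 3.23, 4.37 and 0.953 CPM in ds38k and 0.793, 0.794 and 1.93 CPM in WT (adjusted p = 0.042 with edgeR).

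**Figure D4:**
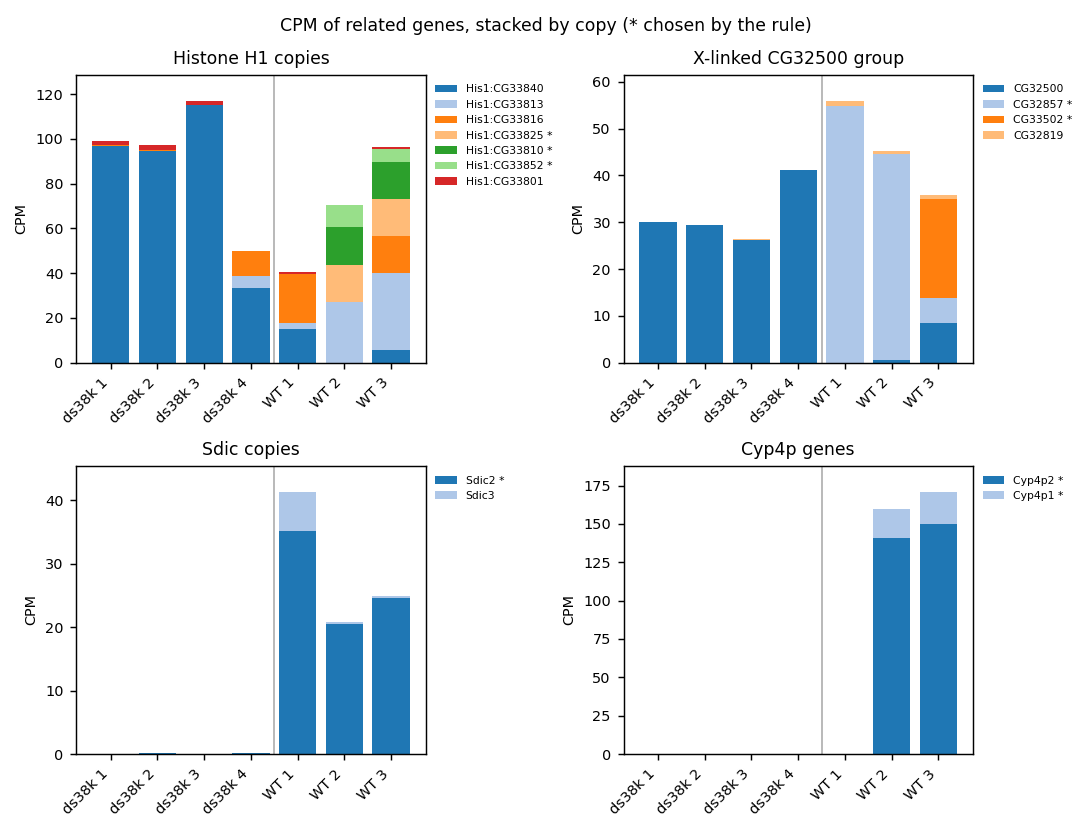
CPM of related genes stacked by copy in each library, ds38k on the left and WT on the right of each panel, with genes taken by the rule starred and genes under 1 CPM in every library not drawn. Histone H1 and the CG32500 group are present in all libraries through different genes, while the Sdic and Cyp4p bars are absent from ds38k and the Cyp4p bars from WT replicate 1 as well. Assignment of reads among these genes was not tested.

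The genes next to those of the set were compared because the rule did not choose them. Of 99 nearest neighbours of the genes silent in WT, leaving out neighbours that met the rule, 46 were at most 0.5 CPM in all libraries and 45 could be tested. Of these 23 rose and 11 fell in ds38k, or 51.1% and 24.4%, beside 34.2% and 30.8% over all genes tested, with a median log2 fold change of 0.64 against 0.07. Without WT replicate 2, 13 of 47 rose, or 27.7% beside 28.5% of all genes tested, and without WT replicate 3, 11 of 47, or 23.4% beside 29.2%. The higher share of risers near these genes was thus not seen without either of these WT libraries, and the 11 that fell became 3 with a correction for transcript length, or 6.67% beside 19.1% of all genes tested. Of 27 tested neighbours of the genes silent in ds38k 6 rose and 11 fell, or 22.2% and 40.7%, with a median log2 fold change of -0.71. The 6 became 3 without WT replicate 2, or 11.1% beside 28.5%. Neighbours include relatives of the chosen gene, such as Hsp70Ab, Sgs7, Lcp2 and Cyp4ac1, so these shares are a description and were not tested.

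**Figure D5:**
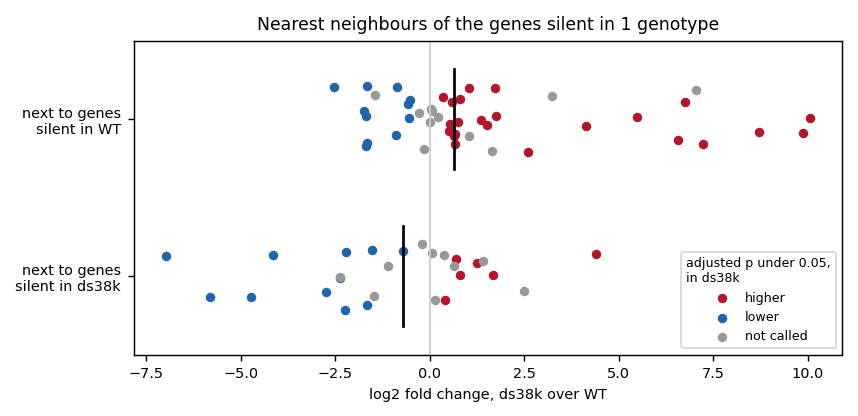
Log2 fold change, ds38k over WT, of the tested nearest neighbours of the genes silent in WT (45, upper row) and in ds38k (27, lower row), coloured by the edgeR call, with the median as a black bar. The upper median lies at 0.64 and the lower at -0.71, and each row holds neighbours on both sides of 0.

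CG31211 stands next to genes of both kinds: Hsp70Aa lies 124 bases from it and CG14731 16039 bases from it on its other side. It had 128, 105, 94.7 and 58.8 CPM in ds38k and 368, 387 and 303 CPM in WT (log2 fold change -1.65 ± 0.22, adjusted p = 0.00045 with edgeR). It fell in ds38k as CG14731 did, which had 0.216, 0.198, 0.195 and 0 CPM in ds38k, against 4.2, 9.68 and 13.7 CPM in WT. Marcal1, a DNA annealing helicase gene 364 bases from Jon25Bi, had 12.3 to 14.6 CPM in ds38k and 13.6 to 17.6 CPM in WT and was not called (adjusted p = 0.75 with edgeR).

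Some genes of the set lay near each other. Within 20 kb of another gene of the same direction were 19 of the 55 genes silent in WT, in 9 clusters, and 10 of the 28 genes silent in ds38k, in 5 clusters. In 3 of these 5 clusters, those of CG3213 with CG8851, Cyp4p1 with Cyp4p2 and ppk13 with CG33509, the same WT libraries carried both genes. Clusters of the genes silent in WT include the 3 proteases of 3L, Jon25Bi with Jon25Bii, alphaTry with deltaTry, and Hsp70Bb with Hsp70Bc, each of a named family.

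Transcripts of the genes silent in WT were short. Their median annotated length was 1039 bases and 14 of the 55 have a single exon, whereas the genes silent in ds38k had a median of 1802 bases and 4 of 28 with a single exon. The genes tested by edgeR had a median of 1852 bases with 14.5% of single exon, and all genes with a position had 1356 bases and 28.2%. A total of 17 genes silent in WT and 13 silent in ds38k overlap another gene.

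Some genes lay close to the limits of the rule. CG8661, at a mean of 5.07 CPM in ds38k, was just inside and CG32302, at 4.91 CPM, just outside. SclB was inside with a highest WT value of 0.486 CPM and CG9297 outside with 0.504 CPM. For the opposite direction saturn was inside at a mean of 5.05 CPM in WT and CG31019 outside at 4.85 CPM, and CG7362 was inside with a highest ds38k value of 0.468 CPM and spartin outside with 0.54 CPM.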

How the data were processed

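Total RNA of wing discs was made into paired-end libraries, per the labels. The authors deposited an unscaled table of expected counts, that is estimated counts of reads, for each gene in each library. The submitters' processing notes name Salmon 1.80, Trimmomatic 0.33, FastQC 0.10 and edgeR, and the build dm6. Salmon splits reads shared by similar transcripts by a model, so counts of near-identical copies are uncertain. All 7 columns were mapped by name and 0 were left over.

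CPM is the deposited count over its column total times 1000000. The rule took means of at least 5 CPM and values of at most 0.5 CPM. The members and gene lists were chosen with earlier results of these data known. For calls, counts were rounded to whole numbers, filtered with filterByExpr (minimum count 10, leaving 9294 genes), scaled by TMM and tested with edgeR 4.0.16 (R 4.3.3, limma 3.58.1), by the quasi-likelihood F-test without covariates and Benjamini-Hochberg adjustment at 0.05. Standard errors were the log2 fold change over the square root of F. The procedure was tested on simulated data. Alternatives were DESeq2 1.42.0, upper-quartile factors, no filter, a replicate block, a transcript length offset, each library left out, and other limits of the rule. Floors are 3 counts per library and cover counting error only. Standard errors also take in the spread between libraries, and SD values give that spread within a genotype. Replicate libraries differed by more than sampling noise (chi-square per degree of freedom 37.4 to 240).

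Positions are from the annotation BDGP6.54, which has dm6 coordinates, and 17083 of 17208 gene identifiers were found in it. The text names the 20 genes with the highest mean CPM in each direction, the genes nearest each limit, some nearest flanking genes, ds, w, the Y-linked list and up to 4 genes of the smallest p per list. Not all nearest flanking genes are named. All other names, overlapping genes included, were chosen after their values were seen. No sequence or protein similarity was used here. Figures were drawn with Python 3.11.15, pandas 2.3.3 and matplotlib 3.10.9.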

Additional observations from a re-analysis of the deposited data

Results flagged for a closer look

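Of the 55 genes silent in WT, 25 had 1 ds38k library set apart from the other 3, by Dixon's ratio of the gap to the range with a limit of 0.829 for 4 values. Chance alone flags about 1 in 20 groups, and these genes were chosen for a high mean over ds38k, which a single high library can give, so the choice of genes in part sets this number. The group of 3 WT libraries was too small for this check.

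In ds38k replicate 3, 15 genes stood highest, with ratios of 1.0 for spok, 0.994 for CG6277, 0.981 for alphaTry, 0.968 for Jon74E, 0.958 for Jon25Bii, 0.917 for CG12115, 0.896 for CG8997, 0.883 for Jon25Bi and for LysS, 0.875 for CG31789, 0.871 for CG7953, 0.868 for CG10912, 0.843 for CG8664, 0.84 for deltaTry and 0.831 for CG6933. In ds38k replicate 4 the 6 genes that stood highest were Hsp70Aa at 1.0, Hsp70Bb at 0.99, Hsp70Bc at 0.989, Hsp70Ba at 0.987, ry at 0.982 and Hsp67Bc at 0.944. In ds38k replicate 1 they were CG7587 at 0.961, CG34279 at 0.951 and Sgs8 at 0.926. CG46321 was set apart by its lowest library, ds38k replicate 4, with a ratio of 0.89.

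The rule left out 7 RNA genes by name that otherwise met it. lncRNA:CR45197 was even across libraries, with 26.8, 27.7, 32.5 and 27.8 CPM in ds38k and no count in WT, a mean of 28.7 CPM in ds38k. lncRNA:CR44898 averaged 5.84 CPM and lncRNA:CR45438 5.13 CPM in ds38k, with at most 0.484 CPM in WT. The ribosomal 28SrRNA:CR45837 averaged 113879.6 CPM in ds38k with no count in WT, and 28SrRNA-Psi:CR45862 averaged 6.93 CPM in ds38k with none in WT. In the other direction asRNA:CR46256 had at most 0.0702 CPM in ds38k and a mean of 12.3 CPM in WT, and asRNA:CR46029 at most 0.0679 CPM in ds38k and a mean of 6.04 CPM in WT.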

How the results depend on the processing

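The counts of genes silent in WT (55) and in ds38k (28) changed with the limits: 10 and 9 when silent meant no counts, 2 and 6 when every expressing library had to reach 5 CPM, 80 and 43 with silence at 1 CPM, and 37 and 16 with a mean of at least 10 CPM. Scaling by TMM gave 59 and 24, totals without ribosomal RNA 65 and 27. Leaving out 1 library gave 39 to 79 and 21 to 43, the extremes coming without ds38k replicate 3 and WT replicate 1 and without WT replicate 3 and ds38k replicate 4, and leaving out ds38k replicate 4 and WT replicate 1 together, chosen after seeing the data, gave 94 and 39.

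Calls between genotypes (6042) ran from 5222 to 6531 with 1 library left out. The length offset, chosen after seeing the data, gave 4307, with 1760 lower against 2859 and 2547 higher against 3183. Upper-quartile factors gave 63.9% of calls as higher, against 52.7%, and moved the median over all tested genes to 0.33 (log2). With the replicate block 6570 genes were called, but the numbers do not pair the libraries: deviations of same-numbered libraries correlated at 0.137, 0.003 and 0.098, and replicate 2 of ds38k correlated best with another number.

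Neighbours of genes silent in WT called higher (23) ranged from 11 to 23 with 1 library left out, and those called lower (11) became 3 with the length offset. Neighbours of genes silent in ds38k called higher (6) ranged from 3 to 7. P450 genes called lower (4) became 1 with upper-quartile factors and 8 with the replicate block. For 20 single genes outside the rule, 210 of 234 values kept direction and call, 20 lost the call, 4 gained it and 0 changed direction. These 20 include genes not named above, such as hh, jbug and blw. They leave out many genes whose edgeR calls are given above, among them Ddc, b, stw, EcR, chinmo and sa. The counts therefore do not show how the calls of those genes depend on the processing. The comparison with genes of similar protein was not run. The cause of these changes was not tested.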
